A study of Rattus norvegicus with 32 samples.

Results

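The 39 genes described here are the rat major histocompatibility complex (MHC, named RT1 in the rat) genes and a small set of antigen presentation genes. They are every entry of the deposited tables whose symbol starts with RT1- or is B2m, Tap1, Tap2, Tapbp, Cd74, Psmb8, Psmb9 or Ciita. The rule took 39 of 32883 genes, and 31 of the 39 are RT1 genes. Each of the 39 symbols stood in both count tables.

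RNA was measured in the hippocampus of Sprague-Dawley rats at an age of 65 days, with 4 rats in each of 4 diet groups for each sex. Messenger RNA libraries were made from total RNA and sequenced in pairs of short reads. The labels put all 16 male libraries in sequencing batch I and all 16 female libraries in batch II. A difference by sex is thus also a difference by batch, the one cannot be told from the other, and each batch is described on its own. The study's methods state that male offspring were used, so the female groups rest on their labels alone. Per those methods, mothers ate an iron-poor diet from early gestation until a week after birth, or an iron-sufficient diet. Choline was added or not during part of gestation, and all offspring later ate an iron-sufficient diet.

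The IS rats had iron-sufficient mothers and the ISch rats had iron-sufficient mothers given choline. FID rats came from iron-deficient mothers, and FIDch rats from iron-deficient mothers given choline. The diet labels of both sexes call these groups ID and IDch, and only the names of the male libraries use FID and FIDCh. All groups share strain, tissue and age. Libraries are named by group and replicate number, which carries no order and no pairing. The neuron markers of the labelled tissue were present, since the summed level of Prox1, Neurod6, Fibcd1, Zbtb20, Wfs1 and C1ql2 lay between 765 and 890 counts per 1e6 counts (CPM) in the male libraries and between 777 and 1197 CPM in the female libraries.

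Class I MHC molecules pair a heavy chain with the light chain B2m and show peptides from inside the cell to CD8 T cells. The peptides are made by the proteasome, with Psmb8 and Psmb9 as catalytic subunits of its immune form, carried into the endoplasmic reticulum by the transporter Tap1 and Tap2, and loaded with the help of tapasin (Tapbp). Class II molecules are an alpha and a beta chain held by the invariant chain Cd74, are loaded with the help of DM, and show peptides from outside the cell to CD4 T cells under the control of the transactivator Ciita. In the brain these genes are known from microglia, border macrophages and endothelium, and some class I genes from neurons. RT1 genes are polymorphic, their number differs between haplotypes, and Sprague-Dawley rats are outbred. The labels give no haplotype, and its part in any difference here was not tested.

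Total counts lay between 3515806 and 9517503 per library in the male batch, with a median of 8007907, and between 18439999 and 26616318 in the female batch. The male FIDch library 2 was the smallest of the 32. A count of 0 allows up to 3 counts, counting error only, which is 0.315 to 0.839 CPM in the male libraries and 0.113 to 0.163 CPM in the female libraries. Values are CPM scaled by the trimmed mean of M-values over the 16 libraries of a batch. Levels are compared between libraries, not between genes, since they are not per length. Hippocampus was measured whole, so fewer cells of a type and less RNA per cell cannot be told apart in any value given here. How the deposited counts treated strand and reads that match several places is not stated in the sources used here. Values of RT1 genes with near-identical copies or overlapping RefSeq models are uncertain for that reason, and this covers genes that the results rest on. RT1-N2, RT1-N3, RT1-S2, RT1-S3 and RT1-T24-4 each overlap LOC134483846 there, and RT1-A2 overlaps LOC134483858. RT1-CE4, RT1-CE5 and RT1-CE7 overlap one another, as do RT1-T24-3 and RT1-T24-4.

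All RT1 members and Psmb8, Psmb9, Tap1, Tap2 and Tapbp lie on chromosome 20 in RefSeq (GRCr8), with B2m on chromosome 3, Cd74 on 18 and Ciita on 10. By role, 2 members are class Ia, the classical class I heavy chains RT1-A1 and RT1-A2, 19 are class Ib, 10 are class II and 8 are the genes without an RT1 symbol. RT1-Ha and RT1-Db2 had 0 counts in all 32 libraries, and RT1-M2, RT1-M5 and RT1-DOa had at most 3 counts in any library. The other 34 members are drawn in the heat map.

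**Figure D1:**
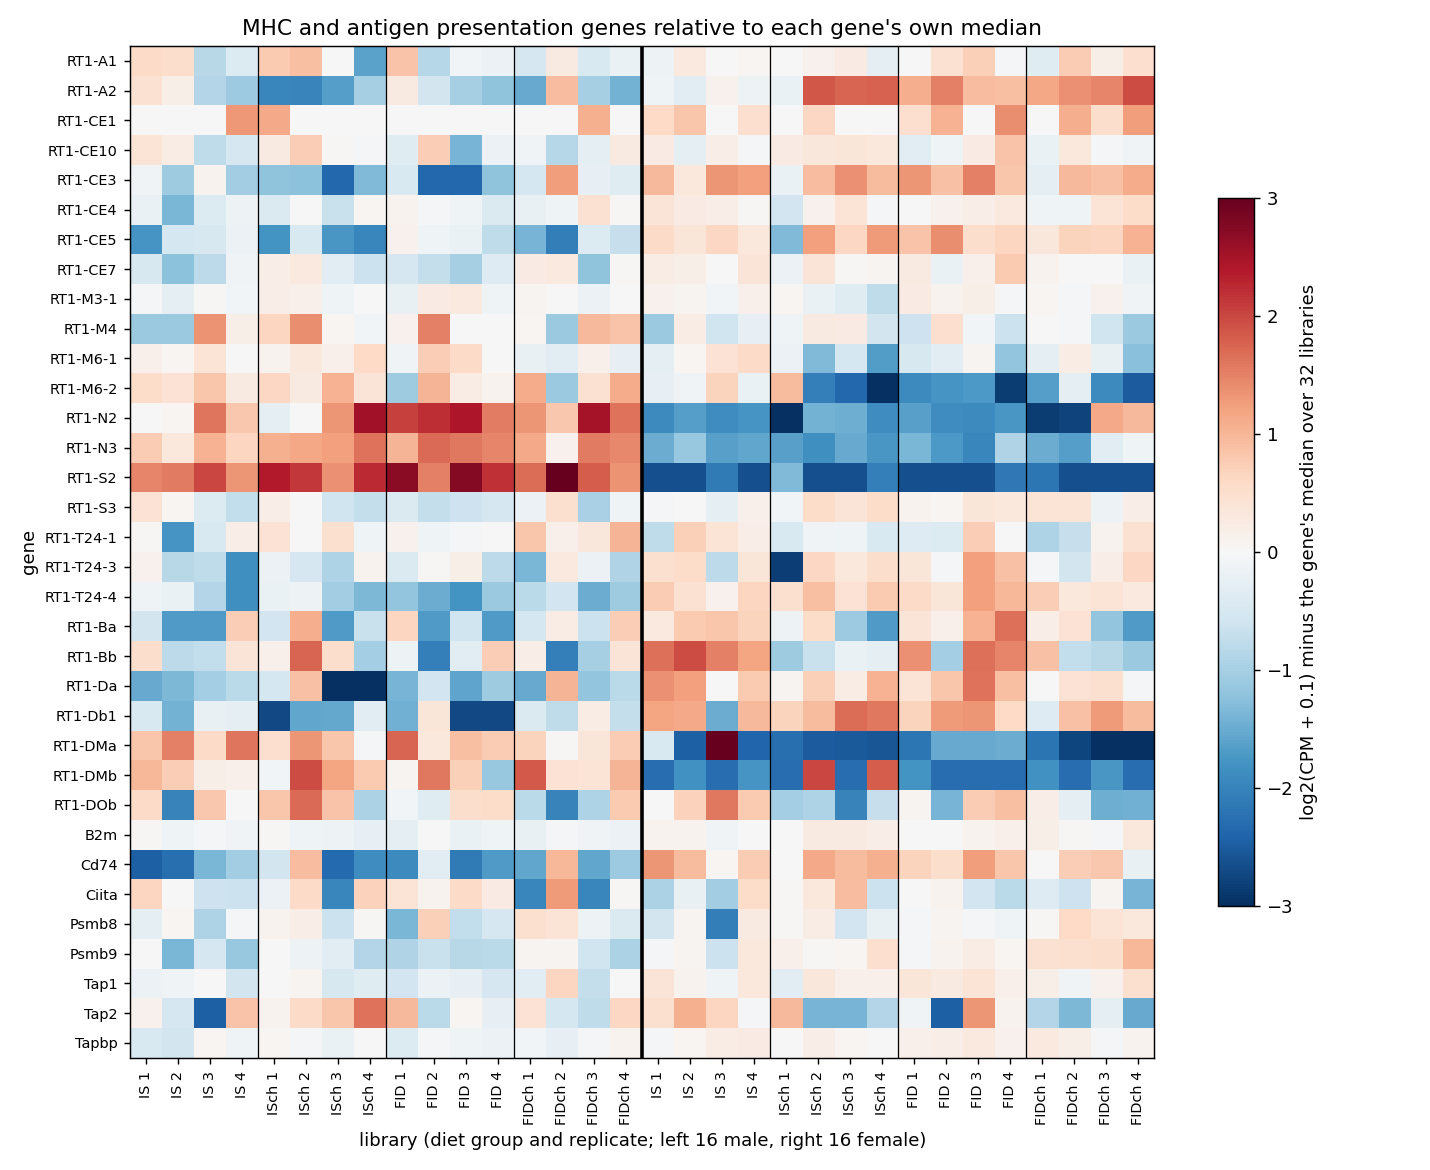
Each horizontal line is 1 of 34 members and each column 1 of 32 libraries (16 male, then 16 female), with color for log2(CPM + 0.1) minus the gene's median over the 32 libraries, from -3 to 3. RT1-S2 and RT1-N3 were above their medians in the male libraries, and single columns such as female IS 3 for RT1-DMa (12.5 CPM) stand out against their group.

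The heat map shows each gene against its own median, so that colors can be read along a gene and not between genes. For 3 of the 26 members that reached 30 counts in some library, the male and female values did not overlap, beside 10.7% of all 14426 such genes. The members were thus near the share of all genes, and the 3 are only described. RT1-N3 lay between 5.04 and 15.1 CPM in the male libraries and between 1.1 and 4.14 CPM in the female libraries. RT1-S2 lay between 1.47 and 6.71 CPM in the male libraries and had at most 3 counts in any female library. RT1-T24-4 went the other way, from 2.06 to 6.98 CPM in the male and from 8.29 to 18 CPM in the female libraries.

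Some libraries stood apart from their group, and several results are given with and without them. These libraries were singled out after their values were seen, so p-values without them only describe the remaining libraries. Female ISch library 1 lay within the IS range for RT1-A2, was the highest of the female batch for RT1-M6-2 and had 0 counts of RT1-N2. Male FIDch library 2 had the highest Cd74, RT1-A2, RT1-S2 and RT1-Da of the male batch along with the lowest total count. Female IS library 3 differed from the other IS libraries in RT1-DMa and RT1-Db1. Over all genes, female FIDch library 4 stood furthest from its group, with a chi-square per gene of 22.4 to 25.2 against the other FIDch libraries, which had 5.35 to 6.87 among themselves. Female ISch library 1 had 11 to 14.3 against the other ISch libraries, which had 5.18 to 6.68 among themselves. The neuron marker sum was 1152 CPM in FIDch library 4 (777 to 915 CPM in the other FIDch libraries) and 893 CPM in ISch library 1 (1127 to 1197 CPM in the other ISch libraries). FIDch library 4 held the highest RT1-A2 and Psmb9 of the female batch. Without FIDch library 4 RT1-A2 was at 1.47 and Psmb9 at 0.53 in FIDch against IS, both at the criterion, and RT1-N2 (1.55) and RT1-Da (-0.65) no longer were. Against FID, RT1-N2 (1.54) and RT1-Bb (-1.38) no longer were.

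The names of these 2 female libraries are also odd, since the number in each follows those of the other group's libraries. Each of these numbers already stands in a name of that other group (FIDch library 2 and ISch library 2). Over all genes, ISch library 1 was closer to FIDch libraries 1 to 3 (chi-square per gene 7.35 to 8.48) than to the other ISch libraries, and FIDch library 4 was closer to ISch libraries 2 to 4 (12 to 19) than to the other FIDch libraries. Against the IS libraries ISch library 1 had 7.82 to 13.3 and FIDch library 4 had 16.4 to 31.1. Against the FID libraries they had 8.78 to 10.8 and 18.8 to 27.6. FIDch library 4 was thus closer to IS library 3 (16.4) and FID library 3 (18.8) than to ISch library 3 (19). Their erythrocyte marker sums were 149 CPM in ISch library 1 (185 to 257.5 CPM in ISch libraries 2 to 4) and 307 CPM in FIDch library 4 (96.6 to 128 CPM in FIDch libraries 1 to 3). RT1-A2 of ISch library 1 (3.96 CPM) lay within the IS range and outside FIDch. Its RT1-M6-2 (11.8 CPM) lay above every IS and FIDch library. Both libraries were kept in the groups of their labels, the comparison of these 2 libraries was chosen after seeing the data, and whether the labels were exchanged was not tested. It bears on every female ISch and FIDch value given here.

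RT1-A2, a classical class I heavy chain, differed between diet groups in the female batch. The female IS libraries held 4.14, 3.6, 4.96 and 4.04 CPM and the FID libraries 9.84, 13.1, 8.73 and 8.59 CPM. The FIDch libraries held 10.2, 11.9, 12.8 and 17.8 CPM and the ISch libraries 3.96, 16.8, 15.6 and 15.8 CPM. Every FID and FIDch library lay above every IS library, and so did 3 of the 4 ISch libraries, while ISch library 1 lay within the IS range. Against IS (mean 4.18 ± 0.569 CPM, SD), RT1-A2 rose by a log2 fold change of 1.26 ± 0.15 (SE) in FID, higher in 4 of 4 libraries, by edgeR's quasi-likelihood test (adjusted p = 0.00382 (BH)). With the 4 female groups in one fit the fold change was 1.26 and the adjusted p of edgeR's quasi-likelihood test was 0.254 (BH), with the same 4 of 4 libraries higher. In the fit of FID and IS alone, leaving out any 1 library gave an adjusted p between 0.00489 and 0.0183 (BH, edgeR's quasi-likelihood test), with fold changes from 1.12 to 1.36 and every FID library kept above every IS library. In FIDch RT1-A2 rose by 1.66 ± 0.18, higher in 4 of 4 libraries, by edgeR's quasi-likelihood test (adjusted p = 0.00212 (BH)), and between 0.000315 and 0.0177 without any 1 library.

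In ISch the log2 fold change of RT1-A2 was 1.63 ± 0.35, with 3 of 4 libraries above every IS library, by edgeR's quasi-likelihood test (adjusted p = 0.0363 (BH)). Without ISch library 1 it was 1.94, with 3 of 3 libraries higher, by edgeR's quasi-likelihood test (adjusted p = 2.12e-05 (BH)). That library was singled out by its RT1-A2 value among others, so this p-value gives no support of its own. Without any other single library of these 8, the fold change was between 1.49 and 1.73 and the adjusted p (BH) of edgeR's quasi-likelihood test between 0.0734 and 0.12, with at least 2 of the remaining ISch libraries above every IS library. The ISch call at an adjusted p under 0.05 thus hung on each of those 7 libraries. Between FIDch and FID the fold change of RT1-A2 was 0.39 ± 0.18 (unadjusted p = 0.0581, edgeR).

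The male RT1-A2 values were 6.23, 5.17, 2.41 and 2.06 CPM in IS and 1.09, 1.07, 1.38 and 2.21 CPM in ISch. They were 5.51, 3.05, 2.24 and 1.92 CPM in FID and 1.52, 8.67, 2.21 and 1.63 CPM in FIDch. IS and FID each had libraries near 2 CPM and near 5 CPM, and the ISch values reached into the IS range only with library 4. Male RT1-A2 was lower in ISch than in IS by a log2 fold change of -1.46 ± 0.38 (unadjusted p = 0.00213), and edgeR's quasi-likelihood test gave an adjusted p of 0.254 (BH), with 3 of 4 ISch libraries below every IS library. The male fold changes were -0.37 ± 0.39 in FID and -0.47 ± 0.51 in FIDch, neither at an unadjusted p under 0.05. RT1-A1, the other classical heavy chain, lay between 0.842 and 5.22 CPM in the male and between 2.12 and 4.7 CPM in the female libraries and passed the criterion in none of the 8 comparisons.

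The 300-base promoter windows of both class Ia genes are shown because 1 of the pair differed between diet groups and the other did not. They run from 250 bases before to 50 bases after the gene's start (RefSeq, GRCr8), at chr20:4906959-4907258, plus strand, for RT1-A1 and chr20:4872621-4872920, plus strand, for RT1-A2. Capitals mark CCAAT on either strand, the Y box letters known from MHC promoters.
RT1-A1: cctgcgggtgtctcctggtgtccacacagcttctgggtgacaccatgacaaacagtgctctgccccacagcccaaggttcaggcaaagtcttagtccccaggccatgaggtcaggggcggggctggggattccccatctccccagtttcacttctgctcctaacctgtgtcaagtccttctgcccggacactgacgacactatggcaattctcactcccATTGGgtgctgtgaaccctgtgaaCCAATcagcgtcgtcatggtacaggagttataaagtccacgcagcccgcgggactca
RT1-A2: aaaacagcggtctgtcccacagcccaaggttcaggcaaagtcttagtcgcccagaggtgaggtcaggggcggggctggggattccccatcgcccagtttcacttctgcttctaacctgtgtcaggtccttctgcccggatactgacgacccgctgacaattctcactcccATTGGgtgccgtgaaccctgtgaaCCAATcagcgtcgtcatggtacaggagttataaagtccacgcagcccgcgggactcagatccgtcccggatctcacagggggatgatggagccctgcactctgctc

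Both windows hold CCAAT at a pair of places, at -31 and -7 in RT1-A1 and at -80 and -56 in RT1-A2, counted from the start to the first base of the match. Shifted by 49 bases against each other, with no gaps allowed, the windows were identical at 182 of 251 bases. Inserted or missing bases put the rest out of register, so that count is a lower limit of their likeness. The reference is not the sequence of these rats. Promoter windows were found for 34 of the 39 members (not for RT1-CE7, RT1-M2, RT1-M4, RT1-DMb and Ciita), and CCAAT stood in 26 of them, beside 37.5% of all 33469 windows. The interferon-stimulated response element core GAAANNGAA stood in 8 of 34, beside 9.71% of all windows. The interferon-gamma activated site TTCNNNGAA stood in 2 of 34, beside 8.87%. Both strands were searched, and a match is a description of letters, not a binding site.

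Among the class Ib genes, RT1-M6-2 differed between female FID and IS. Its female IS libraries held 5.15, 5.68, 9.83 and 5.3 CPM and its FID libraries 1.54, 1.73, 1.79 and 0.767 CPM. Its ISch libraries held 11.8, 1.41, 1.11 and 0.593 CPM and its FIDch libraries 1.89, 5, 1.55 and 1.01 CPM. All FID and FIDch libraries lay below all IS libraries, FIDch library 2 close to them, and ISch was split between library 1, the highest of the 16, and the other 3. In FID RT1-M6-2 fell by 2.17 ± 0.27 on the log2 scale, lower in 4 of 4 libraries, by edgeR's quasi-likelihood test (adjusted p = 0.00567 (BH)). With the 4 groups in one fit it fell by 2.17 and edgeR's quasi-likelihood test gave an adjusted p of 0.427 (BH), with the same 4 of 4 libraries lower. In the fit of FID and IS alone, leaving out any 1 library gave an adjusted p between 0.00489 and 0.0279 (BH, edgeR's quasi-likelihood test), with fold changes from -2.28 to -1.9 and every FID library kept below every IS library.

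In FIDch the fold change of RT1-M6-2 was -1.44 ± 0.42 with all 4 libraries lower, and edgeR's quasi-likelihood test gave an adjusted p of 0.172 (BH). Without FIDch library 2 it was -2.12, with 3 of 3 libraries lower, by edgeR's quasi-likelihood test (adjusted p = 0.0187 (BH)). The library left out there held the highest RT1-M6-2 of its group, so this p-value gives no support of its own. Over the fits with 1 library left out and the other alternatives the fold change ran from -2.12 to -1.17. The adjusted p-values there reached 0.328 (BH, edgeR or DESeq2). In ISch the value was -0.78 ± 0.7 with all libraries (unadjusted p = 0.289, edgeR). Without ISch library 1 it was -2.65 with 3 of 3 libraries lower, by edgeR's quasi-likelihood test (adjusted p = 0.0016 (BH)). That library was singled out by its RT1-M6-2 value among others, so this p-value gives no support of its own. Male RT1-M6-2 lay between 2.8 and 13.5 CPM, with FID library 1 (2.89 CPM) and FIDch library 2 (2.8 CPM) lowest, and did not pass in any comparison. Female ISch library 1 and the IS libraries were thus high in RT1-M6-2 and low in RT1-A2.

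RT1-M6-1, the neighbor of RT1-M6-2 by name, held 1.47, 1.86, 2.46 and 2.69 CPM in female IS and 1.56, 0.653, 1.22 and 0.494 CPM in ISch. It held 1.26, 1.41, 1.89 and 0.726 CPM in FID and 1.46, 2.11, 1.5 and 0.69 CPM in FIDch. The groups overlapped, with the lowest values in ISch. RT1-M6-1 had a log2 fold change of -1.11 ± 0.35 in ISch, with 3 of 4 libraries below every IS library, and edgeR's quasi-likelihood test gave an adjusted p of 0.137 (BH). It was -1.43 without ISch library 1, with 3 of 3 libraries lower, by edgeR's quasi-likelihood test (adjusted p = 0.036 (BH)). In FID it was -0.7 ± 0.29 (unadjusted p = 0.0297, edgeR), and that p was above 0.05 without IS 3, IS 4, FID 1 or FID 4 and with the 4 groups in one fit.

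The windows of this pair are shown because both genes passed the criterion in female FID against IS. They lie at chr20:1571221-1571520, plus strand for RT1-M6-1 and chr20:1588283-1588582, plus strand for RT1-M6-2 (RefSeq, GRCr8), and neither holds any of the 3 motifs, so neither has capitals.
RT1-M6-1: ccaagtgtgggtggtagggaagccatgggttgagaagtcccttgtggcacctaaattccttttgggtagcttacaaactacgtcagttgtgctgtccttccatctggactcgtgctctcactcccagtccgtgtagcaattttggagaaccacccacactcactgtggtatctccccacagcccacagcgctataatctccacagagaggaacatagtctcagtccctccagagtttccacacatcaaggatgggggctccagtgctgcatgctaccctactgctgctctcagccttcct
RT1-M6-2: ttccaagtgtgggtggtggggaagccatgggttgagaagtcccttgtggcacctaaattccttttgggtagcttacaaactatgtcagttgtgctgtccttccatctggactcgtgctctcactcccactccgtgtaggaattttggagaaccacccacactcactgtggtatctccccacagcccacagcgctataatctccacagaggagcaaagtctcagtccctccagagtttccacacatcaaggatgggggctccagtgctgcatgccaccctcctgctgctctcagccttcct

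At a shift of 2 bases, with no gaps allowed, these windows were identical at 227 of 298 bases. An inserted or missing base puts the bases beyond it out of register, so this count is a lower limit of their likeness. The transcribed sequences of the pair were not compared.

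RT1-N2, another class Ib gene, was split within several groups. Male IS libraries held 6.1, 6.32, 18.4 and 10.6 CPM, and male FID libraries 25.2, 28.5, 32.6 and 17.5 CPM. Male ISch libraries held 4.96, 5.93, 15.2 and 34.8 CPM, and male FIDch libraries 15.2, 10.6, 34.6 and 18.8 CPM. The lowest male values were IS 1, IS 2, ISch 1 and ISch 2, and the 4 FID values overlapped IS only at FID library 4. RT1-N2 had a log2 fold change of 1.34 ± 0.29 in male FID (unadjusted p = 0.000617), with 3 of 4 libraries above every IS library, and edgeR's quasi-likelihood test gave an adjusted p of 0.786 (BH). In male FIDch it was 1.02 ± 0.36 (unadjusted p = 0.0152, edgeR). That value was 0.58 without FIDch library 3, and its unadjusted p was above 0.05 there, without IS 2, with DESeq2 and with the 4 groups in one fit.

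In the female batch RT1-N2 lay between 1.52 and 1.86 CPM in IS and between 1.52 and 1.87 CPM in FID. The female ISch libraries held 0, 2.18, 2.12 and 1.58 CPM, and the FIDch libraries 0.748, 0.79, 13.3 and 12 CPM. ISch library 1 had 0 counts where the other 3 had 32 to 40, and FIDch libraries 3 and 4 had 301 and 261 counts where libraries 1 and 2 had 19 and 21. The fold changes of RT1-N2 in FIDch, 2 ± 0.82 against IS and 1.98 ± 0.81 against FID, came from those 2 libraries. Each stayed at an unadjusted p under 0.05 in 2 of 8 fits with 1 library left out, and edgeR's quasi-likelihood test gave adjusted p-values of 0.329 and 0.227 (BH), with 2 of 4 libraries higher.

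RT1-N3 held 7.85, 5.74, 9.48 and 7.21 CPM in male IS, 9.36, 15.1, 13.8 and 12.7 CPM in FID, and 9.67, 10.3, 10.8 and 14.4 CPM in ISch. The male FIDch libraries held 10.1, 5.04, 13.7 and 12.6 CPM. All ISch libraries lay above all IS libraries, 3 of 4 FID and 3 of 4 FIDch libraries did so, and FIDch library 2 was the lowest of the 16. The log2 fold changes of RT1-N3 were 0.75 ± 0.18 in FID (unadjusted p = 0.0011), 0.58 ± 0.17 in ISch (unadjusted p = 0.00576) and 0.52 ± 0.23 in FIDch (unadjusted p = 0.0444), all edgeR. The FID and ISch values kept an unadjusted p under 0.05 in 8 of 8 fits with 1 library left out, and the FIDch value kept it in 3 of 8 and lost it with DESeq2. By edgeR's quasi-likelihood test the adjusted p-values were 0.786, 0.351 and 0.625 (BH), with 3, 4 and 3 of 4 libraries above every IS library. The 3 male comparisons share the IS libraries. In the female batch RT1-N3 was highest in FIDch libraries 3 and 4 (3.63 and 4.14 CPM), the libraries with the high RT1-N2, and lay between 1.1 and 2.38 CPM in the other 14.

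The windows of RT1-N2 (chr20:2646080-2646379, plus strand) and RT1-N3 (chr20:2666239-2666538, plus strand) are shown because both were high in the same female libraries (RefSeq, GRCr8). Capitals mark CCAAT and, in RT1-N3, a pair of overlapping matches to GAAANNGAA, on either strand.
RT1-N2: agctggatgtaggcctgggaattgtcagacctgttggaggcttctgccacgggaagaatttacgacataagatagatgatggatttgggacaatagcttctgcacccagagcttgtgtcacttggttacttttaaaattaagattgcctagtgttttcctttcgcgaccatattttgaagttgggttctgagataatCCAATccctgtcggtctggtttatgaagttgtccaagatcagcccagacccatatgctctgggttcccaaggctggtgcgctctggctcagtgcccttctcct
RT1-N3: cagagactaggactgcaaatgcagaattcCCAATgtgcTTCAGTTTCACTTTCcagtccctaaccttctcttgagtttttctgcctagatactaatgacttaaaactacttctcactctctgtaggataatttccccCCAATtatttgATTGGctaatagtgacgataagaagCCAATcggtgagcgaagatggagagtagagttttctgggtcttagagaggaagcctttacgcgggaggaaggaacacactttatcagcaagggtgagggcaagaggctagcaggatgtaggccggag

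At their best shift, 110 bases, with no gaps allowed, these windows were identical at 63 of 190 bases. The overlapping matches in RT1-N3 start at -212 and -206, and its CCAAT matches at -221, -113, -102 and -77. RT1-N2 has CCAAT at -53.

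RT1-S3 held 17.1, 17.5, 14.4 and 19.6 CPM in female IS and 16.6, 25.9, 23 and 25.8 CPM in ISch. It held 19.1, 18.3, 22.7 and 21.8 CPM in FID and 23.6, 23.3, 15.8 and 20.1 CPM in FIDch. The high ISch values were those of libraries 2 to 4. RT1-S3 had a log2 fold change of 0.41 ± 0.14 in female ISch (unadjusted p = 0.0128), with 3 of 4 libraries above every IS library, and edgeR's quasi-likelihood test gave an adjusted p of 0.171 (BH). Without ISch library 1 it was 0.54 with 3 of 3 libraries higher, by edgeR's quasi-likelihood test (adjusted p = 0.0146 (BH)). In female FID it was 0.26 ± 0.1 (unadjusted p = 0.0251, edgeR), and the fits without IS 3, FID 3 or FID 4 and the fit of 4 groups lost that p.

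The male RT1-S3 values were 23.7, 18.2, 13.1 and 10.4 CPM in IS and 20.3, 17.7, 11.5 and 10.7 CPM in ISch. They were 13.1, 10.6, 11.4 and 12.4 CPM in FID and 15.4, 24.6, 8.94 and 16.1 CPM in FIDch. IS and ISch each held a higher pair (libraries 1 and 2) and a lower pair, and the same IS 1, IS 2, ISch 1 and ISch 2 were the 4 lowest male libraries for RT1-N2. The fold change in FID, -0.48 ± 0.21 (unadjusted p = 0.0397, edgeR), was lost without any 1 of IS 1, IS 2, FID 2, FID 3 and FID 4 and with the 4 groups in one fit. RT1-T24-4 had the same split, with 6.98, 6.6, 4.07 and 2.06 CPM in male IS, 6.65, 6.88, 3.64 and 2.95 CPM in ISch, and 3.31, 2.63, 2.12 and 3.48 CPM in FID. Its male FIDch libraries held 4.3, 5.04, 2.65 and 3.56 CPM, and its fold change in FID was -0.8 ± 0.33 (unadjusted p = 0.0312, edgeR), lost without IS 1, IS 2, FID 2 or FID 3. The names of male ISch libraries 1 and 2 and of male FIDch library 2 have another form in the labels than those of the other 13 male libraries. FIDch library 2 is the one set apart in Cd74, RT1-A2 and RT1-Da, and without it 3 members and 820 genes passed in male FIDch against IS, beside 3 members and 838 genes with it. With ISch libraries 1 and 2 left out, 3 members and 679 genes passed the criterion in male ISch against IS, beside 2 members and 1125 genes with all libraries, a setting chosen after seeing the data.

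RT1-M3-1, which shows formylated peptides, held 15.1, 14.8, 13.1 and 15.6 CPM in female IS and 14.5, 12.1, 10.8 and 8.15 CPM in ISch. The groups overlapped at ISch library 1, and the log2 fold change was -0.36 ± 0.15 (unadjusted p = 0.0324, edgeR). It was -0.5 without ISch library 1 with 3 of 3 libraries lower, by edgeR's quasi-likelihood test (adjusted p = 0.0486 (BH)), and its unadjusted p was above 0.05 without IS 1, IS 2, IS 4, ISch 3 or ISch 4. Female FID and FIDch values of RT1-M3-1 lay between 13 and 16.5 CPM and male values between 11.3 and 17.1 CPM. RT1-S2 in the male batch had a fold change of 0.775 ± 0.31 in FID (unadjusted p = 0.0291, edgeR), from 10 to 35 counts per library over the batch, and lost it without IS 1, IS 2, IS 4, FID 1 or FID 3 and with the 4 groups in one fit.

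**Figure D2:**
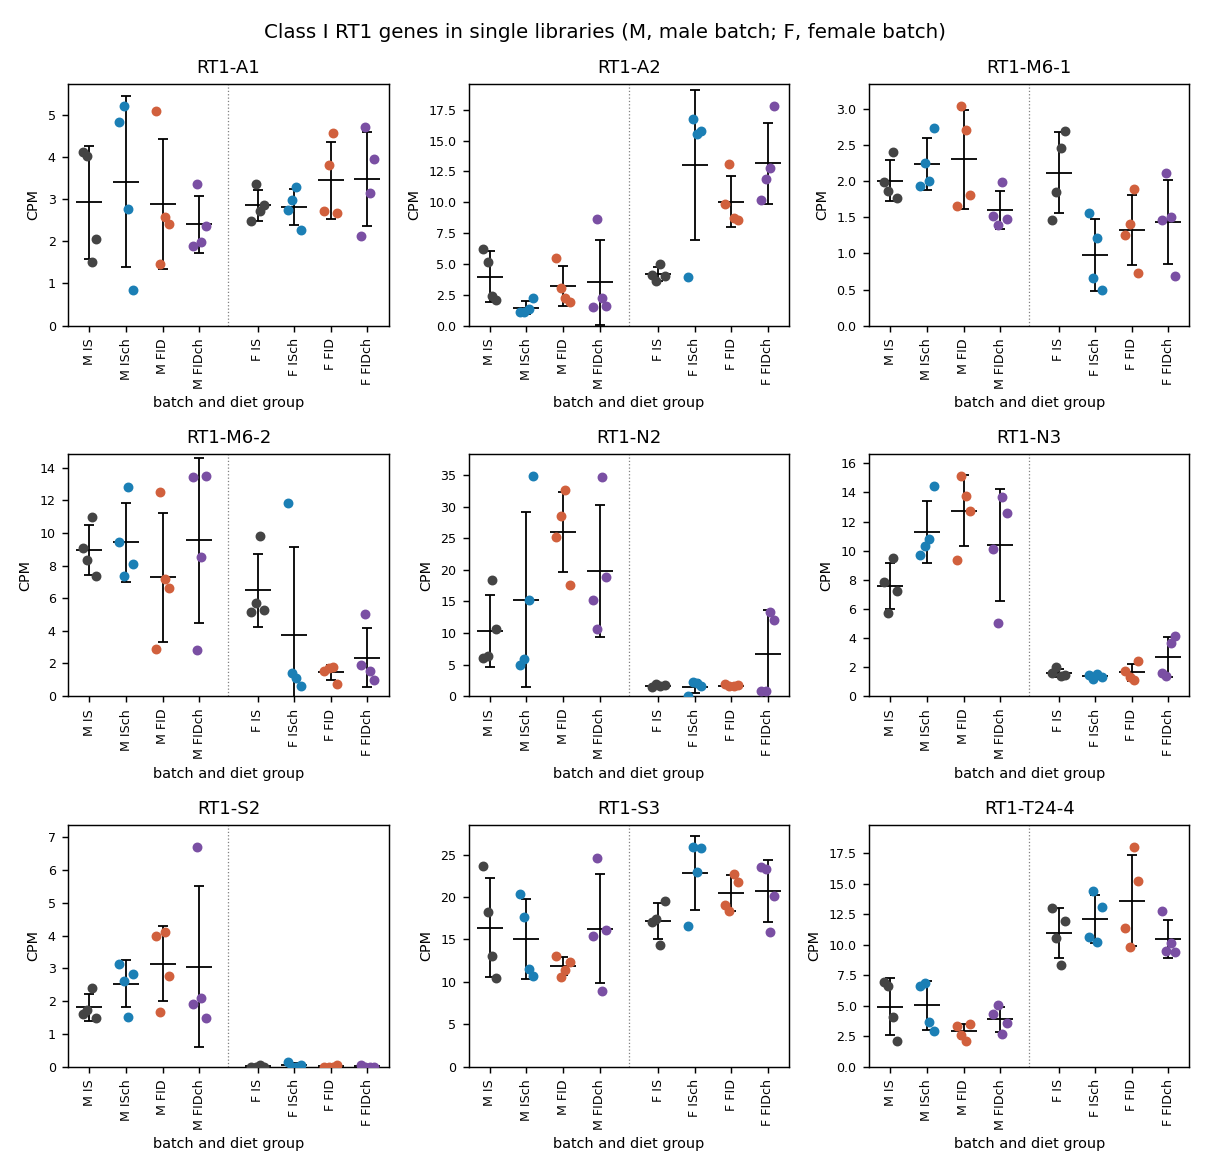
CPM of 9 class I genes in every library, with M for the male and F for the female batch; each point is a library, and the bars give the mean and SD of 4. Female RT1-A2 lies between 3.6 and 4.96 CPM in IS and between 8.59 and 17.8 CPM in FID and FIDch, while 1 ISch point (3.96 CPM) sits with IS.

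The plot of class I genes by library shows the split groups as well as the means, and its axes start at 0, where a longer bar ends. The other 11 class Ib members passed the criterion in no comparison with all libraries. RT1-CE4 lay between 1.72 and 6.4 CPM in the male and between 3.08 and 6.85 CPM in the female libraries, and RT1-CE7 between 1.29 and 3.92 and between 2.76 and 5.53 CPM. RT1-CE5 lay between 0.28 and 1.65 and between 0.538 and 4.13 CPM, and RT1-T24-3 between 0.883 and 4.2 and between 0.391 and 8.15 CPM. Female ISch library 1 was the lowest of its batch in RT1-CE4, RT1-CE5 and RT1-T24-3 too. RT1-CE10 lay between 0.353 and 1.9 and between 0.854 and 2.06 CPM. RT1-CE3 had 0 to 4 counts in the male and 7 to 29 in the female libraries, and RT1-T24-1 had 0 to 4 and 2 to 12. RT1-M4 and RT1-CE1 had at most 5 and 4 counts in any library.

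Single libraries turned on or off in some members. By the rule used, a member is on/off in a batch when at least 1 library has 3 or fewer counts, at least 1 has 30 or more, and the highest level is at least 10 times the lowest. In the female batch 5 of the 25 members that reached 30 counts did so, beside 1.49% of all 14092 such genes. In the male batch, at lower depth, 0 of 16 did, beside 0.662% of 12987 genes. The 5 female members were the class Ib gene RT1-N2, described above, and the class II genes RT1-Bb, RT1-Db1, RT1-DMa and RT1-DMb, 4 of the 10.

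RT1-DMa, the alpha chain of the class II loading factor DM, held 0.758, 0.116, 12.5 and 0.126 CPM in female IS. Library 3 had 285 counts, library 1 had 15 and the other 14 female libraries had at most 8. Male RT1-DMa was found in every library, with 1.99, 3.3, 1.66 and 3.53 CPM in IS, 1.57, 2.85, 2.01 and 1.05 CPM in ISch, and 3.86, 1.36, 2.12 and 1.92 CPM in FID. Male FIDch held 1.77, 1.12, 1.43 and 1.93 CPM, overlapping IS. The male fold change in FIDch was -0.69 ± 0.31 (unadjusted p = 0.0421, edgeR), lost without IS 2, IS 4, FIDch 1, FIDch 2 or FIDch 3, with DESeq2 and with the 4 groups in one fit. The partner chain RT1-DMb had 34 counts in female ISch library 2, 33 in ISch library 4 and 0 or 1 in the other 14 female libraries, and 1 to 15 counts in the male libraries. Its on libraries were not those of RT1-DMa.

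RT1-Bb, the beta chain of the RT1.B class II molecule, held 1.21, 1.51, 1.1 and 0.841 CPM in female IS and 0.0978, 0.163, 0.265 and 0.247 CPM in ISch. FID libraries held 0.976, 0.105, 1.21 and 1.05 CPM, and FIDch libraries 0.669, 0.15, 0.133 and 0.092 CPM. All 4 ISch and all 4 FIDch libraries lay below all IS libraries, FIDch library 1 stood above the other 3, and FID library 2 stood with the low ones. In counts, IS had 20 to 39 and ISch 2 to 5, near the 3 counts that a count of 0 allows. RT1-Bb passed the filter on low counts through its IS libraries, so its p-values describe these libraries and the size of the fall is uncertain. In ISch RT1-Bb fell by 2.57 ± 0.36 on the log2 scale, lower in 4 of 4 libraries, by edgeR's quasi-likelihood test (adjusted p = 0.00705 (BH)), and without any 1 library the adjusted p lay between 0.00632 and 0.0302. In FIDch the fold change was -2.1 ± 0.5 with 4 of 4 libraries lower, and edgeR's quasi-likelihood test gave an adjusted p of 0.103 (BH). Against FID it was -1.64 ± 0.67 (unadjusted p = 0.0332, edgeR), kept in 2 of 8 fits with 1 library left out. The male libraries had 0 to 11 counts, and RT1-Bb was not tested there.

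The window of RT1-Bb, the class II gene with an adjusted p under 0.05 in a comparison within a batch, lies at chr20:4604069-4604368, minus strand (RefSeq, GRCr8). Capitals mark CCAAT on either strand, at -172 and -61.
RT1-Bb: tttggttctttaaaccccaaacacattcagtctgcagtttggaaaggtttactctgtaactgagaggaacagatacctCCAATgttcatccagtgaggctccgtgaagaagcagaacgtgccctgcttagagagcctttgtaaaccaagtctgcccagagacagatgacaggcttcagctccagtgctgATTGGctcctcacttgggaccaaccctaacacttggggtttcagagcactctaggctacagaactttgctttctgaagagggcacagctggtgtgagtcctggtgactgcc

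Some of the female libraries low in RT1-Bb were low in other members as well, a set singled out after its values were seen. RT1-DOb had 6, 14, 25 and 14 counts in IS and 2, 2, 0 and 3 in ISch. It had 8, 1, 11 and 16 in FID and 9, 6, 1 and 1 in FIDch. Tap2 had 13, 27, 17 and 10 counts in IS and 20, 2, 2 and 4 in ISch, with 10, 0, 24 and 12 in FID and 5, 3, 8 and 2 in FIDch. FID library 2 was the lowest FID library in RT1-Bb, RT1-DOb, Tap2 and RT1-Ba (8, 5, 11 and 23 counts), while ISch library 1 was low in RT1-Bb and RT1-DOb and not in Tap2. RT1-Ba had 6 to 12 counts in IS, 4, 7, 1 and 0 in ISch and 7, 9, 1 and 0 in FIDch (0.303 to 0.483 CPM in IS). ISch library 2 (0.381 CPM) and FIDch library 2 (0.339 CPM), low in RT1-Bb, lay within its IS range. Without ISch library 1, RT1-DOb entered the test in ISch against IS, through the IS libraries where it is higher. Its fold change was -2.8, lower in 3 of 3 libraries, by edgeR's quasi-likelihood test (adjusted p = 0.0487 (BH)). The ISch libraries kept held 0 to 3 counts, so that p-value gives no support.

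RT1-Da, the alpha chain of RT1.D, held 4.35, 3.94, 1.62 and 2.86 CPM in female IS and 2.2, 2.98, 5.26 and 3.11 CPM in FID. FIDch held 1.61, 2.22, 2.3 and 1.56 CPM and ISch 1.71, 2.72, 1.9 and 3.46 CPM. FIDch had the narrowest range and overlapped both. The fold change of RT1-Da in FIDch was -0.8 ± 0.27 against FID (unadjusted p = 0.0118, edgeR) and -0.72 ± 0.29 against IS (unadjusted p = 0.0289, edgeR), the latter lost without IS 1, IS 2, FIDch 1 or FIDch 4. Male RT1-Da had 26 counts in ISch library 2 (3.09 CPM), 12 in FIDch library 2 (3.36 CPM) and 0 to 10 elsewhere. RT1-Db1, its beta chain, had 3 counts in female IS library 3 where the other IS libraries had 27 to 34, and 10 to 37 counts in the other groups. Male RT1-Db1 had 0 to 7 counts.

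Cd74, the invariant chain, held 1.37, 1.58, 3.01 and 3.83 CPM in male IS, 5.44, 15.3, 1.5 and 2.1 CPM in ISch, 2.07, 6.41, 1.76 and 2.4 CPM in FID, and 2.66, 16, 2.65 and 3.7 CPM in FIDch. ISch library 2 and FIDch library 2 stood far above the rest, as they did for RT1-Da. The fold changes of Cd74, 1.32 ± 0.64 in ISch and 1.12 ± 0.58 in FIDch, had an unadjusted p of 0.0603 and 0.0744 (edgeR). In the female batch Cd74 held 20.3, 15.6, 8.25 and 13.7 CPM in IS, 7.97, 17.8, 15.6 and 16.9 CPM in ISch, 12.8, 11.6, 19.3 and 14.2 CPM in FID, and 7.99, 13.4, 14.1 and 6.8 CPM in FIDch, and the groups overlapped. Ciita, the class II transactivator, had 0 to 5 counts in the male and 1 to 12 in the female libraries.

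**Figure D3:**
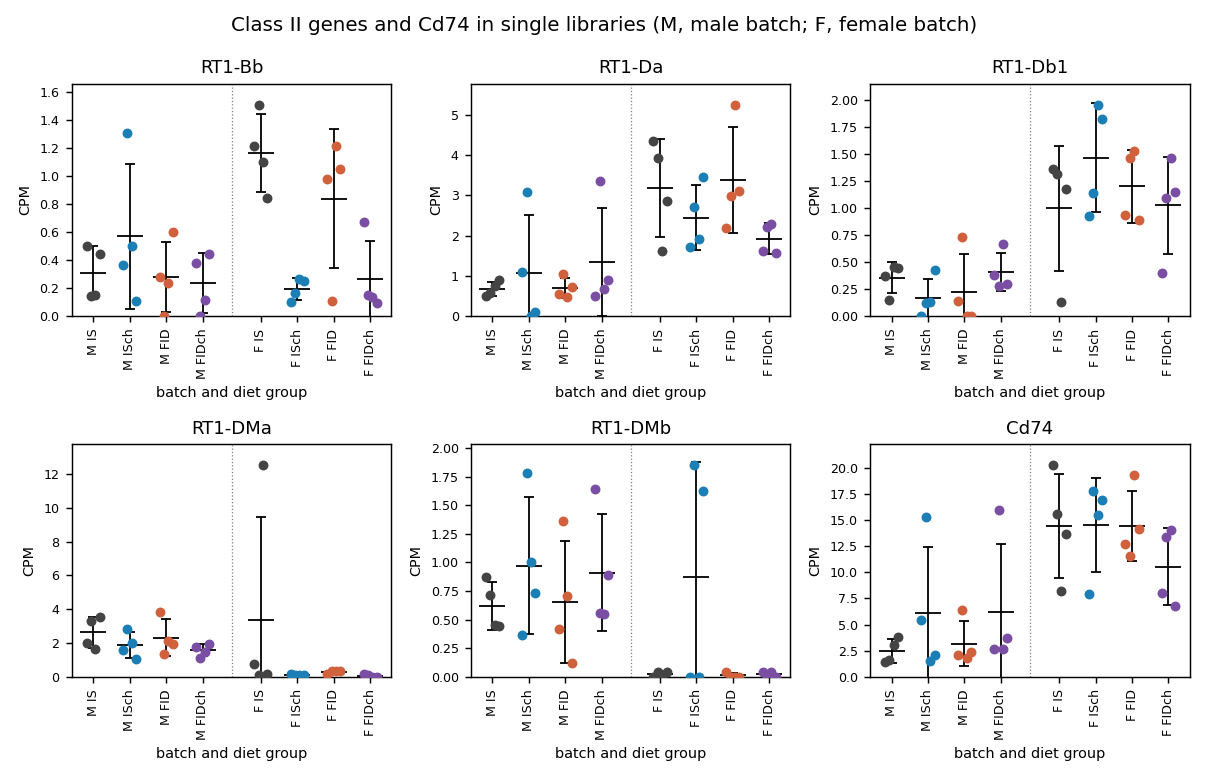
CPM of 5 class II genes and Cd74 in every library, with M for the male and F for the female batch; each point is a library, and the bars give the mean and SD of 4. Female RT1-DMa has 1 point at 12.5 CPM in IS, female RT1-Bb is at 0.841 CPM or more in IS and at 0.265 CPM or less in ISch, and male Cd74 has a point at 15.3 CPM in ISch and at 16 CPM in FIDch.

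Beside the class II values stand the summed levels of cells known to carry class II. In the plot of class II genes the male ISch library 2 and FIDch library 2 are the high points of Cd74 and RT1-Da. Their microglia marker sums were 236 and 224 CPM in a male range of 224 to 277 CPM, with Csf1r giving the most counts to the sum. Perivascular macrophage sums (most counts from Mrc1) were 6.88 and 8.67 CPM in a male range of 3.14 to 11.4 CPM. Other leukocyte sums (most counts from Cd3e) were 11.3 and 9.23 CPM in a male range of 4.86 to 12.1 CPM. Of the 9 other leukocyte markers, Nkg7 was at 0 in all 16 male libraries, and Cd8a, Cd3g, Ms4a1, S100a8 and S100a9 had at most 3 counts in each. In the female batch Cd8a, Cd3g, Ms4a1 and Nkg7 had at most 3 counts in each library, with sums between 6.19 and 14.5 CPM for other leukocyte, 2.89 and 6.31 CPM for perivascular macrophage and 215 and 272 CPM for microglia markers. Female IS library 3, the on library of RT1-DMa, had 254, 3.95 and 8.65 CPM for microglia, perivascular macrophage and other leukocyte markers. The part of any cell type in the class II values was not tested.

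B2m, the light chain of class I, was steady across libraries. It held 237.3, 210.4, 226.6 and 216.2 CPM in male IS and lay between 191 and 236 CPM in the other male groups. Female IS held 250.4, 248.9, 214.8 and 231.1 CPM and ISch 233.5, 278.2, 280.2 and 264.8 CPM, with FID and FIDch between 226 and 287 CPM. The ISch libraries 2 to 4 lay above every IS library. The log2 fold change of B2m in female ISch was 0.16 ± 0.066 (unadjusted p = 0.0355, edgeR), under the fold minimum of 0.2. Without ISch library 1 it was 0.21 with 3 of 3 libraries higher, and edgeR's quasi-likelihood test gave an adjusted p of 0.0524 (BH).

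Psmb9, an immunoproteasome subunit, held 2.27, 2.55, 1.49 and 2.98 CPM in female IS and 3.31, 3.35, 3.5 and 4.87 CPM in FIDch. FID held 2.28, 2.56, 2.79 and 2.5 CPM and ISch 2.69, 2.45, 2.49 and 3.46 CPM. All FIDch libraries lay above all IS and all FID libraries, with library 4 highest. Psmb9 had a fold change of 0.69 ± 0.22 against IS and of 0.57 ± 0.17 against FID, each with 4 of 4 libraries higher, and edgeR's quasi-likelihood test gave adjusted p-values of 0.225 and 0.117 (BH). Both kept an unadjusted p under 0.05 in 8 of 8 fits with 1 library left out. The male values lay between 0.861 and 2.53 CPM, and the groups overlapped.

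Psmb8, the other subunit, held 0.808, 1.31, 0.219 and 1.51 CPM in female IS and 1.26, 1.92, 1.68 and 1.56 CPM in FIDch, with FID between 1.13 and 1.31 CPM and ISch between 0.793 and 1.47 CPM. Its fold change in FIDch was 0.72 ± 0.41 against IS (unadjusted p = 0.11, edgeR), and its male libraries had 3 to 20 counts. Tap1, a chain of the peptide transporter, held 6.27, 5.14, 4.34 and 6.01 CPM in female IS and lay between 3.77 and 6.67 CPM in the other female groups. Male Tap1 held 4.24, 4.45, 4.82 and 3.24 CPM in IS and 3.79, 7.55, 2.87 and 4.74 CPM in FIDch, library 2 again highest, and lay between 3.17 and 5.1 CPM in ISch and FID. Tapbp, or tapasin, lay between 9.19 and 14.5 CPM in the male and between 13.1 and 16.7 CPM in the female libraries. Neither Tap1 nor Tapbp passed in any comparison. Tap2 had 0 to 15 counts in the male libraries. Its female fold change in ISch was -1.01 ± 0.61 (unadjusted p = 0.126, edgeR), and without ISch library 1 it was -2.33 with 3 of 3 libraries lower, by edgeR's quasi-likelihood test (adjusted p = 0.0243 (BH)). The library left out held 20 counts of Tap2 and the ISch libraries kept 2 to 4, so that p-value gives no support.

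The windows of Tap1 (chr20:4668494-4668793, minus strand) and Psmb9 (chr20:4668750-4669049, plus strand) are shown because the genes lie head to head and only the values of Psmb9 differed at the criterion (RefSeq, GRCr8). The windows share 44 bases and are printed on opposite strands. Capitals mark GAAANNGAA at -120 in Tap1 and CCAAT at 22 in Psmb9, on either strand.
Tap1: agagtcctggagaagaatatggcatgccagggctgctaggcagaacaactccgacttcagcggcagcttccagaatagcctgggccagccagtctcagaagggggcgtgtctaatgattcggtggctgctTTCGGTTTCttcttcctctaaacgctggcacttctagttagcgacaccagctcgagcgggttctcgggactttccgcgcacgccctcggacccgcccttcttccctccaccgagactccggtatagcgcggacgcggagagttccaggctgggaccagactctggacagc
Psmb9: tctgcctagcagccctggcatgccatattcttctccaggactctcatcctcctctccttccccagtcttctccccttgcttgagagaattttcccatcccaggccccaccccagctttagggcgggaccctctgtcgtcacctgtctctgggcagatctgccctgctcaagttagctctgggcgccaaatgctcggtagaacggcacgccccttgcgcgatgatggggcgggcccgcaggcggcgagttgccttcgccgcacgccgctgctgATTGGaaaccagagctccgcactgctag

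**Figure D4:**
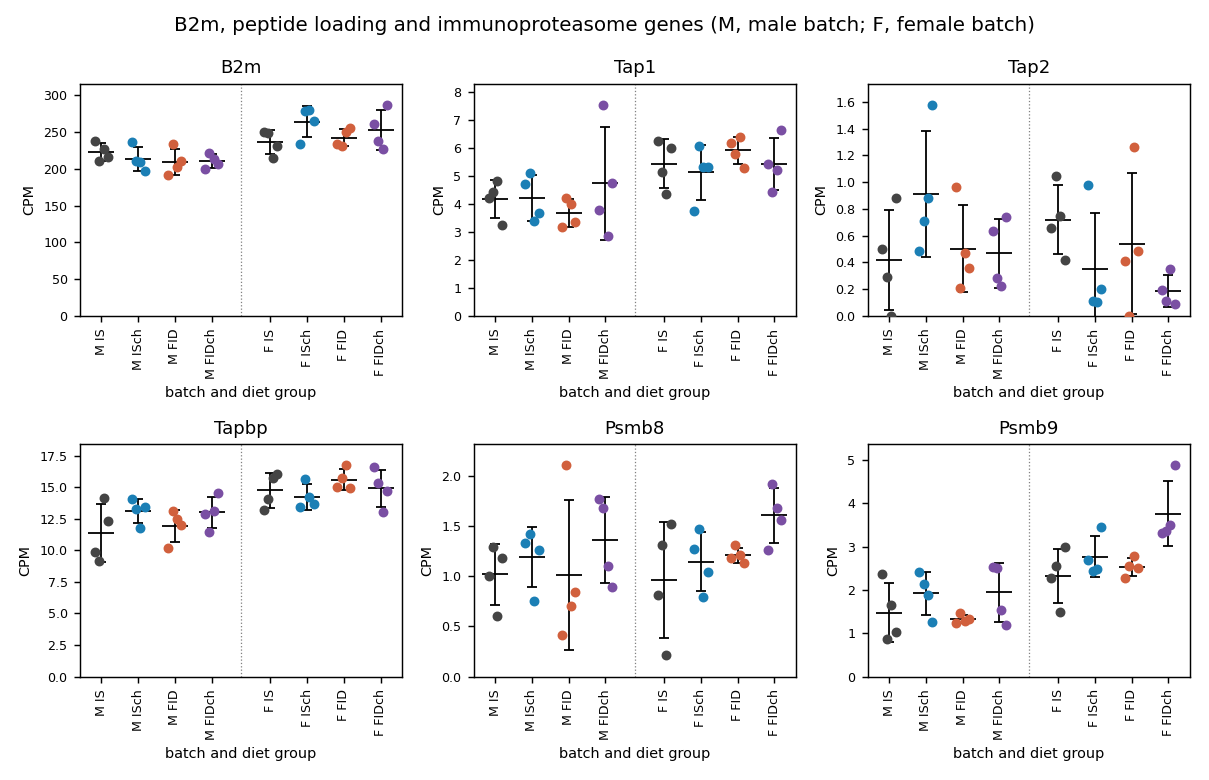
CPM of B2m and the loading and immunoproteasome genes in every library, with M for the male and F for the female batch; each point is a library, and the bars give the mean and SD of 4. Female Psmb9 lies between 3.31 and 4.87 CPM in FIDch, above all female IS and FID points (1.49 to 2.98 CPM), and B2m lies between 191 and 287 CPM throughout.

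The plot of loading genes shows groups that overlap in most panels. It also shows the low Tap2 points of the female ISch and FIDch groups. The other genes of the class I pathway were taken from a list of 16 loading and peptide supply genes, of which 15 or 16 were tested in each comparison. None passed in male FID, male ISch or female FID against IS, 1 was lower in male FIDch against IS (beside 3.21% of all genes) and 2 were lower in male FIDch against FID (beside 7.24%). In female ISch 3 were higher (beside 5.14%), and in female FIDch 1 was higher against IS (beside 4.16%) and 3 were higher against FID (beside 5.59%). Sppl2a was among them each time. It was put in this list, but is an intramembrane protease known to cut the remaining stub of Cd74, the class II invariant chain, so its values do not speak for class I. In female ISch, in FIDch against IS and in FIDch against FID, Sppl2a rose by 0.425 ± 0.067, 0.57 ± 0.072 and 0.52 ± 0.075 by edgeR's quasi-likelihood test (adjusted p = 0.0124, 0.00667 and 0.00833 (BH)), with 4 of 4 libraries above every library of the other group each time. In the male batch it had -0.31 ± 0.13 in FIDch against IS and -0.36 ± 0.13 against FID (unadjusted p = 0.0373 and 0.0147, edgeR). The list's median log2 fold change lay between -0.072 and 0.092 over the 8 comparisons, beside -0.0097 to 0.01 for all genes tested.

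Of the list of 17 class II pathway genes and regulators, 12 to 14 were tested, and Marchf1 was not in the tables. None passed in 5 comparisons. Rfxank, a subunit of the regulator RFX, was the 1 gene higher in male FIDch against FID (0.23, beside 5.74% of all genes). Ctss, the protease that trims Cd74, was the 1 gene lower in female FIDch against IS (-0.26, beside 4.82%) and against FID (-0.28, beside 7.07%), where Nfya was the 1 gene higher (0.24, beside 5.59%). The list's median lay between -0.042 and 0.017.

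Of 32 interferon response genes, 26 to 31 were tested. In female FIDch against IS 11 were higher and 0 lower, beside 4.16% and 4.82% of all genes, with Isg15 at 1.34 ± 0.39, Oas1a at 0.99 ± 0.36, Ifi44l at 0.891 ± 0.39 and Rsad2 at 0.845 ± 0.35. The list's median there was 0.087, beside -0.00027 for all genes, and 0 of 30 had an adjusted p under 0.05 by edgeR. In female FID 6 were higher and 0 lower, beside 3.08% and 3.4% (median 0.11, beside 0.00028), with Ifi44l at 0.86, Usp18 at 0.77, Rsad2 at 0.727 and Irf7 at 0.685. In female ISch 3 were higher and 3 lower, beside 5.14% and 5.15%, with Mx1 at -1.13, Isg15 at 0.899, Mx2 at 0.691 and Ifi27 at -0.602. In FIDch against FID 0 were higher and 1 lower, beside 5.59% and 7.07%. The list's median was -0.015 in female ISch and 0.027 in female FIDch against FID, and lay between 0.0072 and 0.049 in the male comparisons. In the male batch 1 was higher and 1 lower in FID, beside 2.34% and 2.28%, with Ifi27 at -0.96. The male counts were 1 higher and 0 lower in ISch (beside 4.52% and 3.54%), 3 and 1 in FIDch against IS (beside 2.91% and 3.21%), and 1 and 0 in FIDch against FID (beside 5.74% and 7.24%).

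For the counts over all members, the criterion was a log2 fold change beyond 0.2 in size with an unadjusted p under 0.05. These thresholds follow the study's methods, while the test, edgeR's quasi-likelihood test on all genes that passed a filter on low counts, was chosen here. In male FID against IS, which asks what remained of early iron deficiency in the adult, 19 of 39 members passed the filter and 5 passed the criterion, 3 higher (beside 2.34% of 13851 genes) and 2 lower (beside 2.28%). They were RT1-N2, RT1-N3 and RT1-S2 higher and RT1-S3 and RT1-T24-4 lower. None of the 13851 genes had an adjusted p under 0.05 (0%), 787 had an unadjusted p under 0.05, and DESeq2 also put 5 members at the criterion. The median fold change of the 19 was -0.059, beside -0.0097 for all genes. In male ISch, in FIDch against IS and in FIDch against FID the members' median was 0.21, 0.145 and -0.0015, beside -0.0007, 0.01 and -0.00033. The female medians were 0.1 in FID, -0.086 in ISch, -0.0047 in FIDch against IS and -0.085 against FID, beside 0.00028, -0.0037, -0.00027 and -0.0013.

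In male ISch against IS, the comparison of choline without iron deficiency, 21 members were tested, with 1 higher (beside 4.52% of 13956 genes) and 1 lower (beside 3.54%). These were RT1-N3 and RT1-A2. None of the 21 had an adjusted p under 0.05 by edgeR, beside 0.208% of all genes, 2 had an unadjusted p under 0.05, and DESeq2 put 2 at the criterion. In male FIDch against IS 19 were tested, with RT1-N2 and RT1-N3 higher (2 members, beside 2.91% of 13693 genes) and RT1-DMa lower (1 member, beside 3.21%). None had an adjusted p under 0.05 by edgeR, beside 0.131% of all genes, 3 had an unadjusted p under 0.05, and DESeq2 put 0 at the criterion.

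In male FIDch against FID, the comparison of choline after iron deficiency, 0 of 19 members were higher or lower at the criterion by edgeR, and 0 had an unadjusted p under 0.05. All genes tested gave 5.74% higher, 7.24% lower and 1.28% at an adjusted p under 0.05, and DESeq2 also put 0 members at the criterion. Without FIDch library 3, 5 members passed, beside 1955 of 14056 genes, among them RT1-S3 (0.61) and RT1-N2 (-0.76). Without FIDch library 2, 1 member passed, beside 1973 genes.

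In female FID against IS 27 members were tested, with RT1-A2 and RT1-S3 higher (2 members, beside 3.08% of 14632 genes) and RT1-M6-2 and RT1-M6-1 lower (2 members, beside 3.4%). RT1-A2 and RT1-M6-2 were the 2 with an adjusted p under 0.05, beside 0.191% of all genes. In female ISch against IS 25 were tested, with RT1-A2 and RT1-S3 higher (2 members, beside 5.14% of 14466 genes) and RT1-Bb, RT1-M6-1 and RT1-M3-1 lower (3 members, beside 5.15%). RT1-A2 and RT1-Bb had an adjusted p under 0.05, beside 2.54% of all genes. RT1-Bb passed the filter on low counts through its IS libraries and held 2 to 5 counts in ISch, so its call gives no support. Without ISch library 1, the criterion was passed by 10 members, of which 8 had an adjusted p under 0.05. RT1-DOb and Tap2, among those 8, held at most 4 counts in the ISch libraries kept. The number of all genes at the criterion was then 2042 of 14621, up from 1488 of 14466, and 796 genes had an adjusted p under 0.05, up from 368.

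In female FIDch against IS 24 were tested, with RT1-A2, RT1-N2 and Psmb9 higher (3 members, beside 4.16% of 14662 genes) and RT1-Bb, RT1-M6-2 and RT1-Da lower (3 members, beside 4.82%). RT1-A2 alone had an adjusted p under 0.05, beside 0.907% of all genes. Without FIDch library 2, it was passed by 10 members, and for 2 of them the adjusted p was under 0.05. RT1-M6-2, 1 of these 2, had its highest FIDch value in the library left out. All genes at the criterion were then 1279 of 14769, beside 1317 of 14662 with all libraries, and 62 genes had an adjusted p under 0.05, beside 133. In female FIDch against FID 24 were tested, with RT1-N2 and Psmb9 higher (2 members, beside 5.59% of 14680 genes) and RT1-Bb and RT1-Da lower (2 members, beside 7.07%). None of these 24 had an adjusted p under 0.05 by edgeR, beside 2.28% of all genes, 4 had an unadjusted p under 0.05, and DESeq2 put 7 at the criterion. In each batch the 3 comparisons with IS share their IS libraries.

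**Figure D5:**
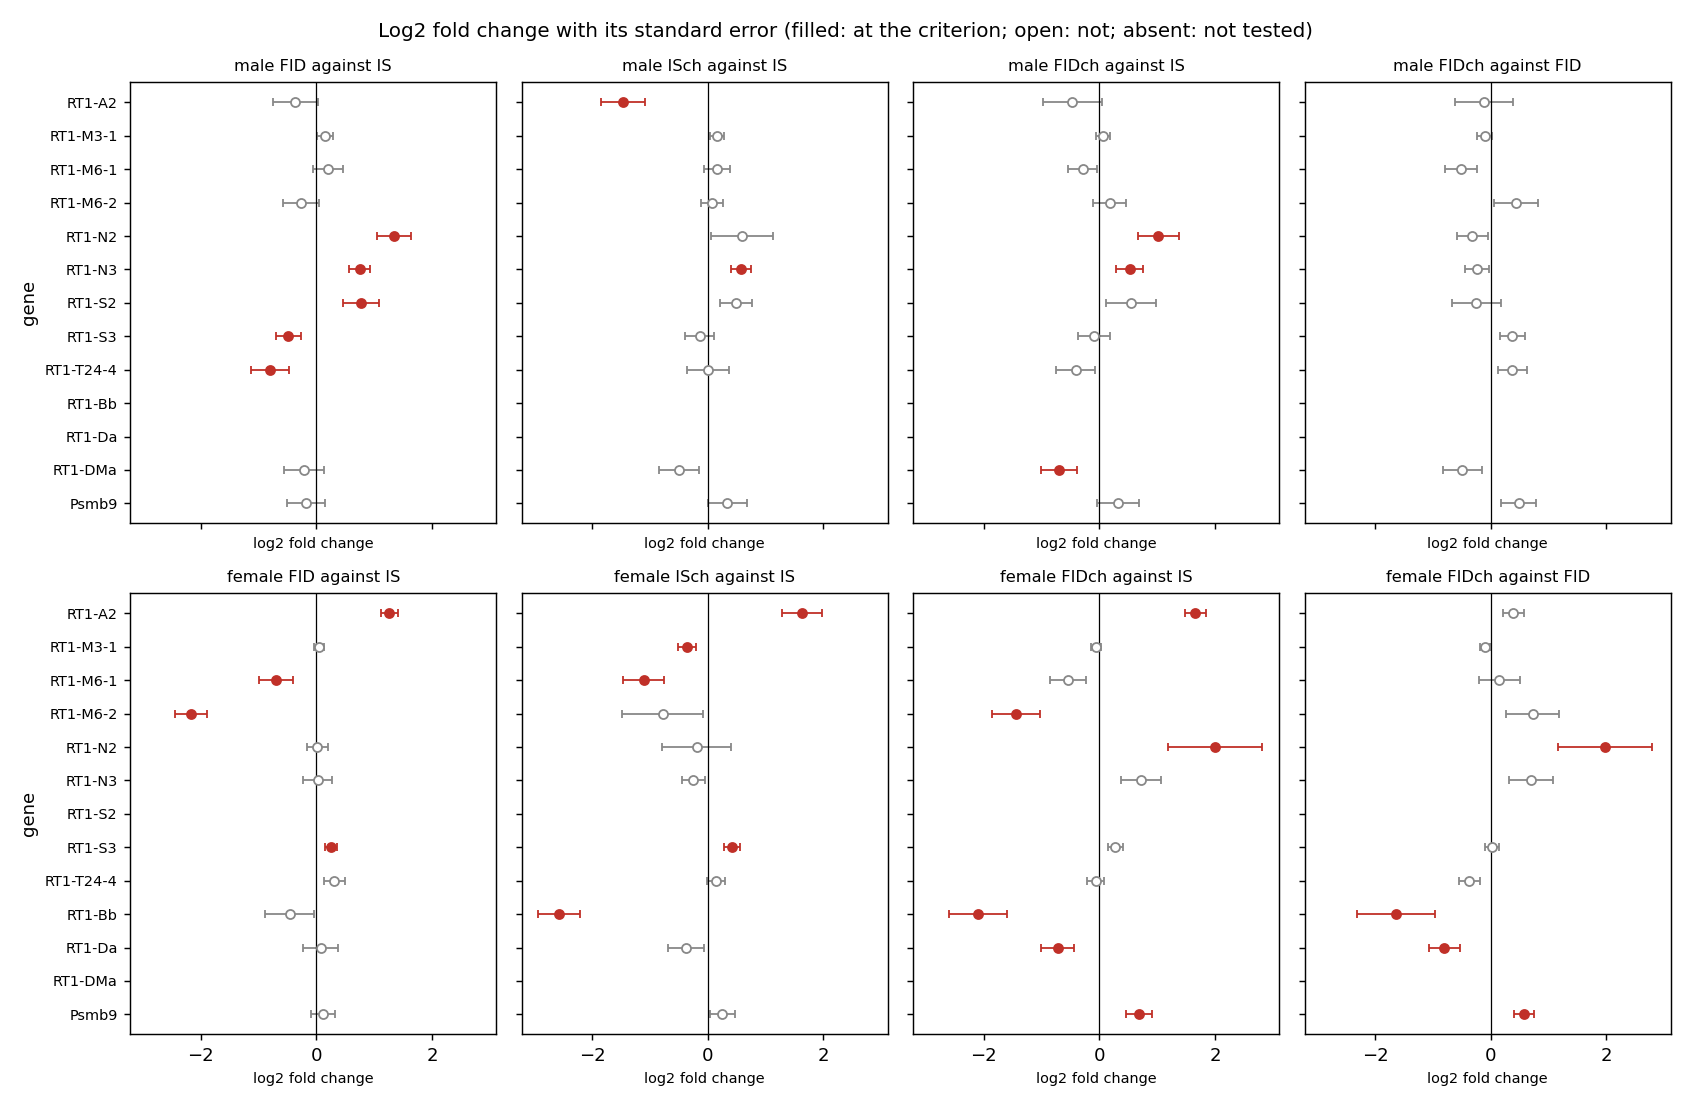
Log2 fold change (horizontal, with SE) of each member at the criterion in at least 1 comparison, 1 panel for each of 8 comparisons; filled points passed the criterion, open points did not, and a missing point was not tested. RT1-A2 is at 1.26, 1.63 and 1.66 in the female comparisons with IS and at -0.37, -1.46 and -0.47 in the male ones.

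The plot of fold changes sets the batches side by side, and the difference between them was tested as an interaction term by edgeR's quasi-likelihood test. In ISch against IS 2 of 28 members had an adjusted p under 0.05, beside 1.28% of 15141 genes. For RT1-A2 the female minus the male log2 fold change was 3.1 ± 0.61 by edgeR's quasi-likelihood test (adjusted p = 0.0166 (BH)), with 3 of 4 female ISch libraries above and 3 of 4 male ISch libraries below every IS library of their batch. For RT1-Bb it was -3.36 ± 0.79 by edgeR's quasi-likelihood test (adjusted p = 0.0441 (BH)), with 4 of 4 female ISch libraries lower and the male IS and ISch libraries at 1 to 11 counts. RT1-Bb was not tested within the male batch, and its female ISch libraries held 2 to 5 counts. It entered this fit through its high female IS libraries, so the call gives no support to a difference. The RT1-A2 difference was 2.98 without male ISch library 2 (adjusted p = 0.0507 (BH), edgeR's quasi-likelihood test, 3 of 4 female ISch libraries higher). The RT1-Bb call was lost, with an adjusted p (BH) from 0.0535 to 0.173 by edgeR's quasi-likelihood test and differences from -3.7 to -2.54, in 14 of the 16 fits that leave out 1 library, all but those without male ISch 4 or female ISch 1; all female ISch libraries kept in a fit were below every IS library each time. RT1-DMa and RT1-DMb had larger differences, -4.27 ± 1.7 and 4.25 ± 1.7, with 30 or more female counts in 1 and 2 libraries (unadjusted p = 0.0224 and 0.0221). Since sex and batch coincide, no difference can be put to sex.

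In FID against IS 0 of 28 members differed between the batches at an adjusted p under 0.05 by edgeR, beside 0.0396% of 15138 genes. The lowest p-values there were those of RT1-M6-2 (-1.92 ± 0.46, unadjusted p = 0.000598) and RT1-A2 (1.62 ± 0.43, unadjusted p = 0.00125). In FIDch against IS 0 of 28 did, beside 0.362% of 15177 genes, with RT1-A2 at 2.13 ± 0.56 (unadjusted p = 0.00131). In FIDch against FID 0 of 26 did, beside 2.88% of 15143 genes, with RT1-CE3, at 0 to 4 counts in the male libraries, at -2.57 ± 0.98 (unadjusted p = 0.0173). The interaction was fitted with edgeR only.

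Cell type markers differed in some of the same comparisons. In female ISch against IS, where 5.14% of all genes were higher and 5.15% lower, 2 of 7 microglia markers were lower, P2ry12 at -0.41 and Cx3cr1 at -0.23, and 1 of 2 other leukocyte markers was lower, Ptprc at -0.81 ± 0.22. Of 3 perivascular macrophage markers 1 was higher, Mrc1 at 0.58 ± 0.24. In the same comparison 2 of 5 hippocampal neuron markers rose, C1ql2 by 0.51 ± 0.077 and Prox1 by 0.39 ± 0.074, both known from dentate granule cells, by edgeR's quasi-likelihood test (adjusted p = 0.0103 and 0.0227 (BH)), with 4 of 4 ISch libraries above every IS library for both. In female FIDch 1 of 7 microglia markers, Cx3cr1, was lower against IS (-0.28, beside 4.82%) and against FID (-0.32, beside 7.07%). Against IS 2 of 5 neuron markers, C1ql2 and Prox1, were higher (beside 4.16%), while the median of the 5 was -0.14. Their part in the RT1-A2, RT1-Bb and RT1-M6 values was not tested.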

How the data were processed

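Hippocampal RNA of 32 rats was measured, 4 per diet group and sex. The deposited files are gene count tables that the authors made with FastQC, Trimmomatic, HISAT2 on Rnor_6.0 and featureCounts of Subread (per the submitters' processing notes, which give no versions). Counts of each pair of groups were fitted across all genes with edgeR 4.0.16 (R 4.3.3, limma 3.58.1; trimmed mean of M-values, filterByExpr, quasi-likelihood test), called where p before adjustment was under 0.05 and the log2 fold change beyond 0.2 in size, with adjusted p-values (BH) over all genes tested beside it. Differences between the batches were tested as an interaction over 16 libraries.

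Alternatives were RLE size factors, every gene with at least 1 count, DESeq2 1.42.0, the replicate number as a block, the 4 groups of a batch in one fit, an adjusted p under 0.05, other on/off limits and each library left out. Leaving libraries out of the interaction tests, RLE there, the distances of female ISch 1 and FIDch 4, and leaving out male ISch 1 and 2 together were chosen after seeing the data. The members and lists were chosen with earlier results of these data known.

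Named are all members without an RT1 symbol, the up to 3 RT1 genes with the highest mean CPM in each class, every member at the criterion and every on/off member, and of other lists at most 4 genes per comparison at the criterion, by size. The lists are class I loading and peptide supply, class II pathway and regulators, interferon response, and microglia, perivascular macrophage, other leukocyte, erythrocyte, endothelial, choroid plexus and hippocampal neuron markers. Depth was 3515806 to 26616318 counts per library, and a count of 0 allows up to 3 counts. The tests were tried on simulated counts. All libraries were used unless stated. Promoters came from RefSeq (GRCr8).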

Additional observations from a re-analysis of the deposited data

Results flagged for a closer look

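For independent values of normal spread, chance sets 1 library of 4 far from the other 3 in about 1 in 20 groups. That rate does not hold for groups at or near 0 counts or for genes that share libraries. Nor does it hold for members taken because they are on/off, so no comparison with chance is made here. In 12 of 144 groups of 4 libraries, over 18 genes, 1 library lay far from the other 3. In the female batch these were Tap2 in ISch library 1 (0.978 CPM, others 0.106 to 0.198), RT1-A2 in the same library (3.96 CPM, others 15.6 to 16.8), Psmb9 in FIDch library 4 (4.87 CPM, others 3.31 to 3.5) and RT1-Bb in FIDch library 1 (0.669 CPM, others 0.092 to 0.15). RT1-DMa in IS library 3 had 12.5 CPM (others 0.116 to 0.758), and RT1-Db1 in the same library 0.132 CPM (others 1.18 to 1.36). RT1-DMa in FID library 1 had 0.163 CPM (others 0.314 to 0.323), which is 4 counts where the others had 6 to 8. RT1-DMb there had 0.0407 CPM, which is 1 count where the others had 0 and cannot be told from 0, since a count of 0 allows up to 3.

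In the male batch Cd74 stood apart in FID library 2 (6.41 CPM, others 1.76 to 2.4) and in FIDch library 2 (16 CPM, others 2.65 to 3.7). FIDch library 2 also stood apart in RT1-A2 (8.67 CPM, others 1.52 to 2.21) and RT1-Da (3.36 CPM, others 0.506 to 0.889). It was the library with the fewest counts (3515806), and the part of its depth was not tested.

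In ISch against IS the interaction test flagged RT1-A2, at 3.1 on the log2 scale, and RT1-Bb, at -3.36 (female minus male). RT1-Bb entered that test through its female IS libraries and was not tested within the male batch, so its value gives no support to a difference. The RT1-A2 call was lost without male ISch library 2 (2.98, adjusted p = 0.0507 (BH) by edgeR's quasi-likelihood test, 3 of 4 female ISch libraries higher). The RT1-Bb call was lost in 14 of 16 fits with 1 library left out, with adjusted p-values up to 0.173 (BH) by edgeR's quasi-likelihood test and differences from -3.7 to -2.54, and its male IS and ISch libraries had 1 to 11 counts. Sex and batch cannot be told apart.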

How the results depend on the processing

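No fold change of a member at the criterion turned its direction under an alternative, and the list genes were fitted in 1 way only. Of the fold changes of members at the criterion judged under an alternative, 311 kept the call and 97 lost it. These include the main fits judged at an adjusted p under 0.05. There a call counted as lost although the fit was unchanged and still met the criterion. RLE size factors moved no member count by over 1.5 times. At an adjusted p under 0.05 the member counts were 0 in male FID, ISch and FIDch against IS, 2 in female FID, 2 in female ISch, 1 in female FIDch against IS and 0 against FID. With every gene of at least 1 count they were 5 in male FIDch against IS (1228 of all genes, beside 838), 1 in male FIDch against FID (2191, beside 1810), 8 in female ISch (1864, beside 1488), 11 in female FIDch against IS (1699, beside 1317) and 8 against FID (2245, beside 1859). DESeq2 gave 0 in male FIDch against IS (630, beside 838) and 7 in female FIDch against FID (1840, beside 1859). The 4 groups in one fit gave 3 in male FID (909, beside 640) and 2 in female FID (791, beside 947). The cause was not tested.

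Without 1 library, the member counts ran from 2 (without FID 3 or IS 2) to 5 in male FID, from 2 to 4 (without ISch 3 or ISch 4) in male ISch, from 0 (without IS 2) to 4 in male FIDch against IS and from 0 to 5 (without FIDch 3) against FID. They ran from 2 (without IS 3) to 5 in female FID, from 4 to 10 (without ISch 1) in female ISch, from 4 to 10 (without FIDch 2) in female FIDch against IS and from 2 (without FID 3) to 8 (without FID 2 or FIDch 1) against FID. All genes at the criterion were 1955 without male FIDch 3 (1810 with it), 2042 without female ISch 1 (1488) and 1279 without female FIDch 2 (1317). In female FIDch against FID they were 1633 without FID 2 and 1762 without FIDch 1, beside 1859. For the other fits they are not given here, so those member counts do not speak for the members alone. Members differing between the batches ran from 0 (without male ISch 2) to 4 (without female ISch 1) in ISch, from 0 to 1 (without male FIDch 2) in FIDch against IS, and stayed at 0 in FID against IS and FIDch against FID. On/off members ran from 3 (without IS 3) to 5 in the female batch and stayed at 0 in the male batch. With on at 10 counts 1 male member was on/off, with on at 100 counts 2 female members were, and with off at 1 count 3 female members were. The share of all genes under these changes is not given here, so these on/off counts only describe the members.

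With the replicate block the count was 1 in male FIDch against FID, and in female ISch the adjusted p (BH) of edgeR's quasi-likelihood test was 0.105 for RT1-A2 (1.51, 3 of 4 libraries higher) and 0.0508 for RT1-Bb (-2.54, 4 of 4 lower). It ended the call at the criterion for RT1-DMa in male FIDch against IS (-0.63, unadjusted p = 0.0628), for RT1-N2 and RT1-Da in female FIDch against IS (1.28 and -0.68, unadjusted p = 0.149 and 0.0587) and for RT1-N2 against FID (1.28, unadjusted p = 0.127), all edgeR. Samples of a block share only a number, and the pairing was not supported by the data (correlations of deviations -0.185 to 0.217).

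The male depth limits what the class II genes show, since most lie near the 3 counts that a count of 0 allows. Each group holds 4 rats, sex is one with batch, and reads shared among RT1 copies cannot be separated in gene counts.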

Other observations

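Of all genes tested, 2.34% were higher and 2.28% lower at the criterion in male FID, 4.52% and 3.54% in male ISch, 2.91% and 3.21% in male FIDch against IS and 5.74% and 7.24% against FID. The female shares were 3.08% and 3.4% in FID, 5.14% and 5.15% in ISch, 4.16% and 4.82% in FIDch against IS and 5.59% and 7.07% against FID, and the counts of marker genes given here stand beside them.

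Of 4 erythrocyte marker entries (Hba-a2 stands in 2, Hba-a1 in none), 1 was lower in male ISch (Hba-a2 at -0.47) and 2 were higher in female ISch (Hba-a2 at 0.52 and 0.5), with 0 at the criterion elsewhere. Their sum lay between 70.6 and 194 CPM in the male and between 85.5 and 307 CPM in the female libraries. Of 4 endothelial markers tested (Pecam1 was not in the tables), Cldn5 was lower in male FID (-0.29) and male ISch (-0.31) and higher in male FIDch against FID (0.23), where Slco1a4 was lower (-0.22). Cdh5 was lower in female FIDch against IS (-0.225) and Flt1 against FID (-0.25).

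Choroid plexus markers rested on Ttr, which had 350 CPM in male FID library 4 and at most 14 CPM in the other male libraries. Its fold change was 5.8 in male FID against IS and -6.25 in FIDch against FID, and -1.05 and -1.69 in female FIDch against IS and FID. Among the RT1 members, male FID library 4 was neither the highest nor the lowest of the male batch in any gene named at the criterion.

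Of perivascular macrophage markers, F13a1 was lower in male ISch (-1.11). Mrc1 was lower in female FID (-0.52), higher in female ISch (0.58) and, with F13a1 (1.1), higher in female FIDch against FID (0.81). Of 2 other leukocyte markers tested, Ptprc was higher in male FID (0.52). Of hippocampal neuron markers, 1 of 5 was lower in male ISch, C1ql2 at -0.23, where the median of the 5 was 0.059. In female FIDch against IS 2 of 5, C1ql2 and Prox1, were higher (0.395 and 0.3), where the median of the 5 was -0.14. Against FID 1 of 6 was higher (median -0.13), Prox1, by 0.39 with 4 of 4 libraries above every FID library, by edgeR's quasi-likelihood test (adjusted p = 0.00559 (BH)). Microglia markers passed in no male comparison and in female FID in none.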
